A study of Mus musculus with 6 samples.

Results

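The genes described here are targets of the hypoxia-inducible factors (HIF) and genes of glycolysis, read in R1 mouse embryonic stem cells with and without a vitamin C derivative. They were chosen by name, as rows of the deposited expression table whose platform annotation gives 1 symbol on a list of 37 names. The names stand for 36 genes, since Ero1l is an older name of Ero1a. Of these, 32 were measured on 40 features, out of 22180 genes on 23521 features with 1 symbol: 18 HIF targets and 14 glycolysis genes. Aldoa and Ankrd37 lie on features that carry several symbols, and Eno1 and Gpi1 were not analysed here. Cultures numbered 1, 2 and 3 were kept for 3 days with 0.74 mM (250 µg/ml) ascorbic acid 2-glucoside, named AA2G in the labels, and another 3, numbered alike, were kept untreated. All 6 were R1 cells, a single male line of strain 129X1 x 129S1, grown on gelatin in fetal bovine serum with LIF, the cytokine that keeps mouse stem cells self-renewing. The labels give neither the oxygen level nor the cell density, and they do not say what a replicate number stands for.

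HIF is a pair of proteins that switches on genes when oxygen is scarce. While oxygen is present, prolyl hydroxylases (the Egln proteins) mark the HIF alpha subunit, the von Hippel-Lindau protein binds it, and it is degraded. These hydroxylases need iron and 2-oxoglutarate, and ascorbate helps to keep their iron reduced. HIF targets include nearly every step of glycolysis, and cultured mouse embryonic stem cells draw much of their energy from it. HIF binds DNA at short hypoxia response elements, whose core is ACGTG or GCGTG.

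RNA of each culture was hybridised to 1 array, so that there are 6 arrays, and values are on the log2 scale. Array medians lay between 5.06 and 5.10. The stem cell gene Nanog read 11.20, 11.13 and 11.17 with AA2G, against 11.31, 11.36 and 11.34 in untreated cells. A tested change is AA2G minus untreated in a limma model over the 6 arrays with Benjamini-Hochberg adjustment over all 23521 features, and a feature is called at an adjusted p under 0.05. The values for a gene are those of its brightest feature. Member means ran from 4.80 to 12.8, and the table has no detection calls. The lowest 3, Vldlr, Adm and Car9, lay under 4.99, the percentile 40 of the tested features. RNA from a whole culture does not separate fewer cells of a kind from less RNA per cell.

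The members moved together from culture to culture, and at the median 69.7% of a member's variance lay between replicate numbers and 9.91% between treatments. Over all features these medians were 40.9% and 15.8%. There are more numbers than treatments, so noise alone puts a larger share between numbers, and the shares are not on 1 scale. In both groups most HIF targets and glycolysis genes were highest in the culture numbered 1, intermediate in number 3 and lowest in number 2. With AA2G, 0 of the 32 genes passed the limma threshold, a share near the background, since 0.761% of all features did. The lowest adjusted limma p of a member for AA2G was 0.288, that of Eno2. For the replicate number, 0 of the 32 passed the threshold as well. The culture numbered 2 was the lowest of its group in both groups for 25 of 32 members, a pattern found in 15.5% of all features. The full order of numbers, 2 below 3 below 1, appeared in both groups for 22 members and in 7.72% of all features.

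**Figure D1:**
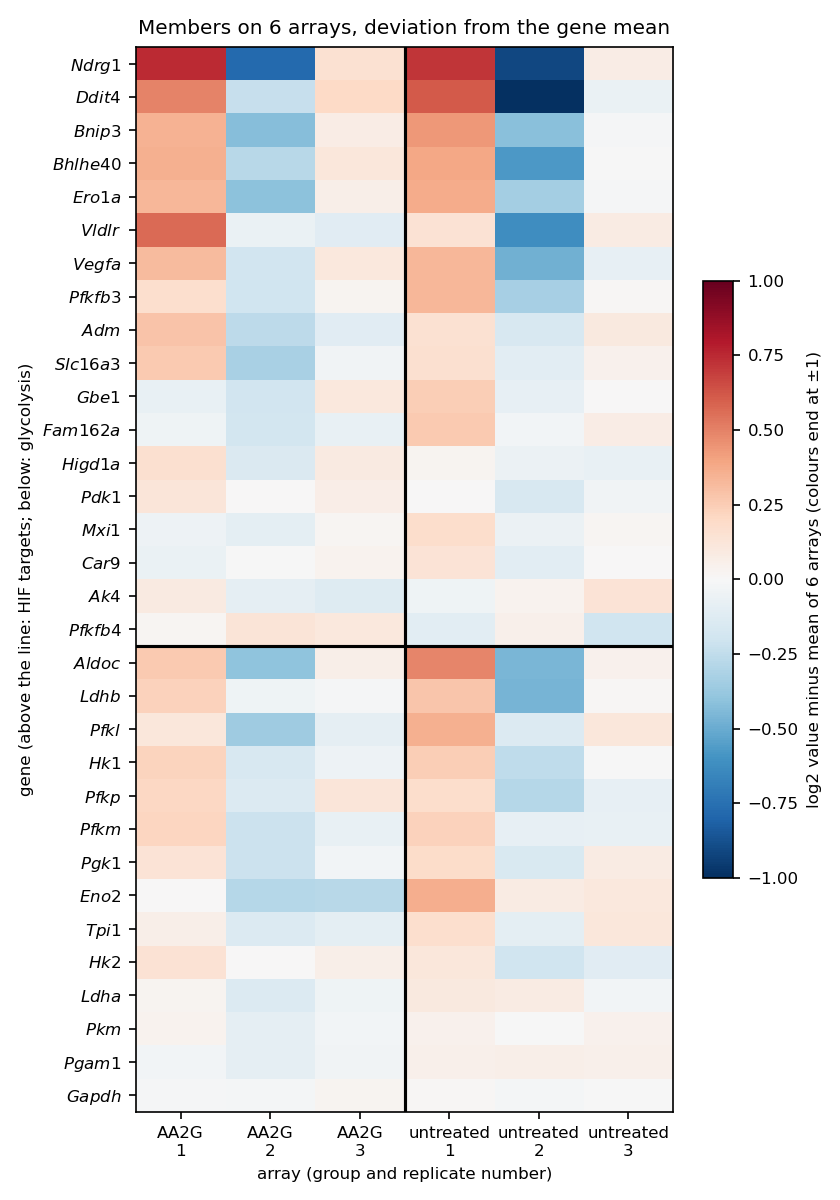
Colours show each gene's log2 value minus its mean over 6 arrays, with AA2G arrays 1 to 3 on the left, untreated arrays 1 to 3 on the right, HIF targets above the line and glycolysis genes below it. Arrays numbered 1 are mostly red and arrays numbered 2 mostly blue in both groups. The deepest colours belong to Ndrg1 and Ddit4, and Gapdh is nearly white.

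Among the HIF targets, Ndrg1, a stress gene that responds strongly to low oxygen in many cell types, varied most. It read 8.52, 7.0 and 7.93 in AA2G cultures 1, 2 and 3, against 8.49, 6.87 and 7.85 in untreated cultures 1, 2 and 3. Cultures of the same number nearly coincided, and the groups overlapped fully. The level in number 2 was 1.57 ± 0.08 (SE, n = 2 arrays a number) below that in number 1, a 2.98-fold difference. Between replicate numbers lay 99.5% of the gene's variance over the 6 arrays. The distance between its highest and lowest number was the largest among all 23521 features. A dimmer second feature of Ndrg1 also put number 2 lowest, by 0.58 ± 0.11 against number 1.

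Bnip3, a mitophagy receptor, had 8.43, 7.66 and 8.16 in AA2G cultures 1 to 3, against 8.52, 7.67 and 8.07 in untreated cultures 1 to 3. Ero1a, an oxidase that helps to form disulfide bonds in the endoplasmic reticulum, had 10.19, 9.45 and 9.92 with AA2G, against 10.23, 9.52 and 9.84 in untreated cells. Bhlhe40, a transcriptional repressor, had 9.80, 9.16 and 9.55 with AA2G, against 9.83, 8.87 and 9.44 untreated. All 3 genes were lowest in number 2 and highest in number 1 in each group, and their groups overlapped. Number 2 lay below number 1 by 0.81 ± 0.08 for Bnip3, 0.72 ± 0.08 for Ero1a and 0.80 ± 0.10 for Bhlhe40 (SE). The replicate number held 98.8% of the variance of Ero1a and 92.9% of that of Bhlhe40.

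Hk1, Aldoc, Pfkm and Pgk1, of glycolysis, completed the 8 members with the largest share between replicate numbers. Hexokinase 1, Hk1, traps glucose in the cell, and it read 7.90, 7.52 and 7.63 in AA2G cultures 1 to 3, against 7.92, 7.43 and 7.67 in untreated cultures 1 to 3. Aldolase C, Aldoc, splits fructose 1,6-bisphosphate, and it read 9.30, 8.64 and 9.10 with AA2G, against 9.53, 8.58 and 9.08 untreated. Both repeat the order seen for the HIF targets, with 97.2% of the variance of Hk1 and 95.9% of that of Aldoc between numbers. The muscle phosphofructokinase gene Pfkm, of the committed step, read 8.34, 7.90 and 8.05 with AA2G, against 8.35, 8.04 and 8.05 untreated. Phosphoglycerate kinase 1, Pgk1, which makes ATP, read 11.69, 11.33 and 11.52 with AA2G, against 11.73, 11.40 and 11.63 untreated. Their spans were smaller, with number 2 below number 1 by 0.37 ± 0.08 for Pfkm and 0.35 ± 0.08 for Pgk1, and shares of 94.3% and 93.5%.

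**Figure D2:**
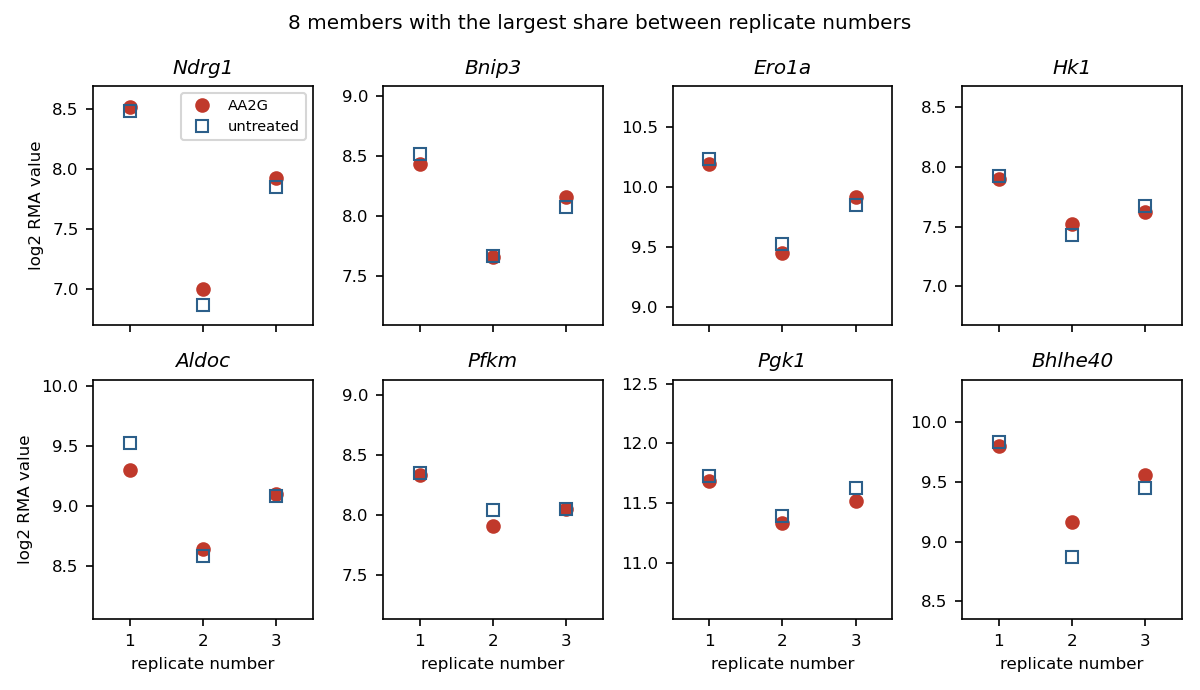
Each panel plots the log2 level of 1 gene against the replicate number, with filled circles for AA2G and open squares for untreated cultures, 1 array a point, on a vertical span of 2 log2 units that does not start at 0. In all 8 panels both groups are highest in number 1 and lowest in number 2, and the circle and square of a number lie close together.

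The promoters of the first 4 of these genes for which a sequence was given are shown because HIF acts through the core ACGTG or GCGTG. Each line holds the 250 bases before the gene's start, 5′ to 3′ on the gene's strand, from RefSeq on build GRCm38.p6. Hk1 and Aldoc have 2 windows each, and the start with the most cores was taken. Capitals mark a core on either strand, so that CACGT and CACGC are the same cores read from the other strand. An ACGTG core inside CACGTG is also an E-box, a site of other helix-loop-helix proteins such as that encoded by Bhlhe40. The regions are chr7:138909507-138909756 on the minus strand for Bnip3, chr14:45318573-45318822 (minus) for Ero1a, chr10:62340422-62340671 (minus) for Hk1 and chr11:78322823-78323072 (plus) for Aldoc.
Bnip3: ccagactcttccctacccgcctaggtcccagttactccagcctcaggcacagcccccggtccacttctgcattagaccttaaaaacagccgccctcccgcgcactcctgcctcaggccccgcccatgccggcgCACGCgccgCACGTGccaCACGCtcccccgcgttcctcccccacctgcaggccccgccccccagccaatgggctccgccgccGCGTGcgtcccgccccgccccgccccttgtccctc
Ero1a: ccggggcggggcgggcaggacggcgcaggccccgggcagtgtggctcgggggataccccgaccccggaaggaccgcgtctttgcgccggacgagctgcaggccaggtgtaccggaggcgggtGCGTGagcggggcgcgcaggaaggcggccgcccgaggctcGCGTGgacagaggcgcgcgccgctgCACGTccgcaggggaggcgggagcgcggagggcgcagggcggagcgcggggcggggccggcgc
Hk1: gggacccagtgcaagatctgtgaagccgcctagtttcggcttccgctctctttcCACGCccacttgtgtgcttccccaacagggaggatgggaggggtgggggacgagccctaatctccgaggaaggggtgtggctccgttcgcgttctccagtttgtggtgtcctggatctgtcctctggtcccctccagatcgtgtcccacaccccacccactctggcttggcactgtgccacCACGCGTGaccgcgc
Aldoc: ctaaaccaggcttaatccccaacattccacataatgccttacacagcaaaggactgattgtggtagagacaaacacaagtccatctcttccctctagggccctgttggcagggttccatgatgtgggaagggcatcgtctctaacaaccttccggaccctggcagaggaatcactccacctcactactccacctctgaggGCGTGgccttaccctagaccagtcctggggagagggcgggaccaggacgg

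Bnip3 holds 5 cores in this stretch, 2 of them the 2 strands of 1 CACGTG, while Ero1a and Hk1 hold 3 each and Aldoc 1. Promoter windows of 300 bases, from 250 before to 50 after the start, were given for 30 of the 32 members, in 46 windows. A core stood in 76.1% of the member windows, against 43.8% of all 32851 windows. For ACGTG the shares were 50.0% and 19.6%, for GCGTG 56.5% and 32.4%, and for CACGTG 10.9% and 7.15%. The windows of the members were also richer in G and C, with a median of 60.4% against 52.4% over all windows, and the part of base composition in these shares was not tested. By gene, 26 of 30 members (86.7%) held a core in some window, against 46.7% of all 27025 genes. A gene with several windows has more chances to hold a core, and the members had more windows a gene than all genes. Tpi1, Vldlr, Gbe1 and Eno2 held none. A match to 5 letters is a description and does not show binding.

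Of the 18 HIF targets, 11 had the order 2, 3, 1 in both groups, with spans that differed widely. Ddit4, which restrains mTOR signalling under stress, read 9.11, 8.39 and 8.81 in AA2G cultures 1 to 3, against 9.23, 7.59 and 8.55 in untreated cultures 1 to 3. Number 2 was lower in untreated than in AA2G cells, and its span over numbers, 1.18, ranked 3 among all features. Vegfa, the growth factor of blood vessels, read 9.02, 8.52 and 8.81 with AA2G, against 9.04, 8.23 and 8.63 untreated, with 87.8% of its variance between numbers. Pfkfb3, which makes the activator of phosphofructokinase, had 92.5% between numbers, the lactate exporter gene Slc16a3 85.2% and the vasodilator peptide gene Adm 84.0%. Number 2 was below number 1 by 0.52 ± 0.10 for Pfkfb3, 0.43 ± 0.10 for Slc16a3, 0.43 ± 0.11 for Adm and 0.70 ± 0.19 for the lipoprotein receptor gene Vldlr (SE).

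Smaller shares were found for Higd1a, a mitochondrial membrane protein (61.3%), the glycogen branching enzyme gene Gbe1 (48.8%), Pdk1, which shuts pyruvate dehydrogenase (43.7%), the MYC antagonist gene Mxi1 (43.1%), Fam162a (40.2%) and Pfkfb4 (30.4%). Carbonic anhydrase 9, Car9, a classical HIF marker of tumours, had a share of 26.7% at 4.92 ± 0.05 with AA2G and 4.94 ± 0.12 untreated (SD, n = 3 each). Dimmer second features had shares of 24.5% for Pdk1, 20.1% for Mxi1 and 40.8% for Car9. That of Mxi1 put number 3 lowest on the mean of both groups. The mitochondrial adenylate kinase gene Ak4 had the lowest share among HIF targets, 5.22%. Over all features the median share was 40.9%, and noise alone gives part of any share. Pfkfb4 was the 1 member whose level was higher in number 2 than in number 1, by 0.13 ± 0.09.

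Within glycolysis the steps were not alike. All 14 genes read lower in number 2 than in number 1, by 0.32 at the median, but the difference ran from 0.80 for Aldoc to 0.02 for Gapdh. The 3 phosphofructokinase genes differed by 0.48 ± 0.08 (Pfkl), 0.40 ± 0.08 (Pfkp) and 0.37 ± 0.08 (Pfkm), and the heart-type lactate dehydrogenase gene Ldhb by 0.51 ± 0.14. Hk2 and Tpi1, the triose phosphate isomerase gene, differed by 0.22 ± 0.08 and 0.23 ± 0.08. Smaller differences were read for the pyruvate kinase gene Pkm (0.08 ± 0.08), the muscle-type lactate dehydrogenase gene Ldha (0.09 ± 0.09), Pgam1 (0.03 ± 0.08) and Gapdh (0.02 ± 0.08). For these 4 genes the error is about as large as the difference or larger. These are limma errors, which draw on a prior over all features and can exceed a gene's own scatter. Gapdh was at 12.84 ± 0.02 with AA2G and at 12.84 ± 0.02 untreated (SD, n = 3 each). The mouse genome holds near-identical copies of Gapdh and Pgam1, so their features may read several loci. The 2 features of Pgam1 disagreed: the dimmer one put 80.2% of its variance between numbers and differed by 0.36 ± 0.11, against 4.39% for the brighter one.

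As a test, the replicate number was entered in the limma model beside the group and read by an F statistic, which rests on 2 residual degrees of freedom. After adjustment 0 of the 32 members passed, and 0% of all features passed. The lowest adjusted limma p among members was 0.202, for Ndrg1. At an unadjusted p under 0.05 there were 18 of 32 members (10 HIF targets and 8 glycolysis genes), all with number 2 below number 1, against 10.9% of all features. With a trended robust prior in limma, 14 of the 32 members passed an adjusted p of 0.05, against 3.01% of all features. Their adjusted limma p ran from 3.48e-05 for Ndrg1 to 0.0473 for Ldhb, with Ero1a, Bnip3, Aldoc, Bhlhe40 and Pfkl next after Ndrg1. The call of the replicate number thus depended on the prior. The members and this test were chosen with the variation by replicate number already known, so the shares beside all features are a description.

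The share of variance between numbers had a median of 69.7% over the 32 members, 72.5% over HIF targets and 69.7% over glycolysis genes, against 40.9% over all features. Over brighter features the median was 44.4%. Between the treatments lay 9.91% of the members' variance at the median, against 15.8% for all features. The members correlated strongly over the 6 arrays once each group's mean was taken off. The median Pearson r over their 496 pairs was 0.80, with 38 pairs below 0, while over all pairs of tested features the median was 0.00. Pairs with r over 0.8 made up 50.8% of member pairs, 6.24% of all pairs and 7.93% of pairs of brighter features. HIF targets paired with glycolysis genes had a median r of 0.81 over 252 pairs, as close as pairs within HIF targets (0.79) or within glycolysis (0.82). These correlations rest on 6 arrays, which share their normalization, and describe them only.

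Against the mean of the other members, 17 genes had r over 0.9, the highest being Pfkl at 0.996 and Bnip3 at 0.992. Another 14 lay between 0 and 0.9, with Ak4 at 0.17, Pgam1 at 0.45 and Ldha at 0.52 at the low end. Pfkfb4 ran opposite, at -0.72. A single component held 92.6% of the members' variance around the group means, against 40.6% for all features. On it the arrays numbered 1 stood at 0.42 (AA2G) and 0.53 (untreated), those numbered 2 at -0.44 and -0.59, and those numbered 3 at 0.03 and 0.05. Genes with a wide range weigh most in that component.

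**Figure D3:**
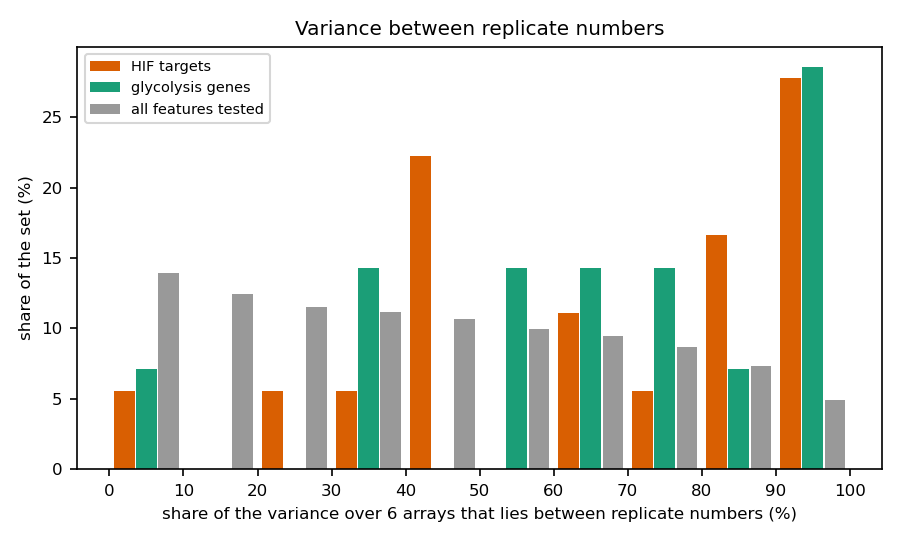
Bars give the share of each set (vertical axis, %) that falls in each 10-point class of the share of variance between replicate numbers (horizontal axis, %), for 18 HIF targets, 14 glycolysis genes and all 23521 features. HIF targets (27.8%) and glycolysis genes (28.6%) are most frequent in the class from 90 to 100, which holds 4.89% of all features.

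Because the numbers differed so much, AA2G was also compared with untreated cells within each number. The median of the 32 differences was -0.04 within number 1, -0.02 within number 2 and 0.01 within number 3, and -0.02 in the fit over all arrays, against -0.01 over all features. AA2G was the higher in 10 members within number 1, in 15 within number 2 and in 18 within number 3. Single differences ran from -0.36 to 0.42 within number 1, from -0.37 to 0.79 within number 2 and from -0.38 to 0.30 within number 3. No common direction ran through the HIF targets, of which 3 were higher and 1 was lower in all 3 numbers.

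Of the 14 glycolysis genes, 7 read lower with AA2G in each of the 3 numbers and 2 read higher in each. Over both groups of genes that makes 8 of 32 members lower and 5 higher within all numbers, against 20.0% and 15.8% of all features. The 7 were Eno2, Pfkl, Tpi1, Pgam1, Ldha, Pgk1 and Pkm, and none passed the limma threshold. The 2 that read higher were Hk2 (0.13 ± 0.10, SE) and Pfkp (0.12 ± 0.14).

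Eno2, the neuronal enolase gene, which is also a HIF target, had the smallest p. It read 6.73, 6.44 and 6.45 in AA2G cultures 1 to 3, against 7.09, 6.81 and 6.83 in untreated cultures 1 to 3. The difference was nearly constant, -0.36, -0.37 and -0.38 within numbers 1, 2 and 3, and the groups did not overlap. The fitted change was -0.37 ± 0.11 (SE; limma adjusted p = 0.288, unadjusted p = 0.0113). In this fit it was the 1 member at an unadjusted p under 0.05, against 9.71% of all features. With the replicate number added to the model, the unadjusted limma p was 0.00141 for Eno2, 0.0144 for Pfkl and 0.031 for Fam162a. In that model 2931 of the 23521 features had an unadjusted p under 0.05, and 0 members passed after adjustment.

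Pfkl, the liver phosphofructokinase gene, showed the same constancy on top of a wide spread between numbers. It read 9.76, 9.29 and 9.55 with AA2G, against 9.99, 9.50 and 9.76 untreated. Each AA2G culture was lower than the untreated culture of its number, by 0.24, 0.21 and 0.21, yet the groups overlapped. The fitted change was -0.22 ± 0.15 (SE; limma adjusted p = 0.728), and that error includes the spread between numbers. With the replicate number added to the model, the SE was 0.06 and the limma adjusted p 0.263.

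Among HIF targets, Fam162a, a mitochondrial protein linked to cell death in low oxygen, read 9.43, 9.29 and 9.41 with AA2G, against 9.74, 9.45 and 9.55 untreated. Its 3 AA2G values all lay below the untreated ones, and the change was -0.20 ± 0.09 (SE; limma adjusted p = 0.545). Pdk1 read 9.27, 9.16 and 9.22 with AA2G, against 9.15, 8.98 and 9.11 untreated, with no overlap and a change of 0.13 ± 0.08 (limma adjusted p = 0.666). A much dimmer second feature of Pdk1 differed by -0.01, 0.59 and -0.08 within numbers 1, 2 and 3, and its groups overlapped. Pfkfb4, an enzyme that sets the level of fructose 2,6-bisphosphate, read 5.99, 6.10 and 6.07 with AA2G, against 5.87, 6.02 and 5.77 untreated. Its change was 0.17 ± 0.09 (limma adjusted p = 0.590), higher in 3 of 3 numbers, though the groups overlapped. With Pgam1 (-0.10 ± 0.07), 4 of 32 members had groups that did not overlap, or 12.5%, against 15.7% of all features.

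The largest fitted differences belonged to Eno2, Ddit4 and Vldlr, and those of Ddit4 and Vldlr were not alike across numbers. Ddit4 differed by -0.12, 0.79 and 0.26 within numbers 1, 2 and 3, for a fitted 0.31 ± 0.37 (SE; limma adjusted p = 0.858). Vldlr differed by 0.42, 0.56 and -0.19. In number 2, where most members were lowest, AA2G was above untreated by 0.43 for Ldhb and by 0.29 for both Vegfa and Bhlhe40. Other members went the other way there, with differences of -0.37 for Eno2 and -0.22 for both Ldha and Slc16a3. Of the 32 members, 15 were higher with AA2G within number 2, and the median difference was -0.02. With 1 array for each number and group, a difference of response between numbers was not tested.

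**Figure D4:**
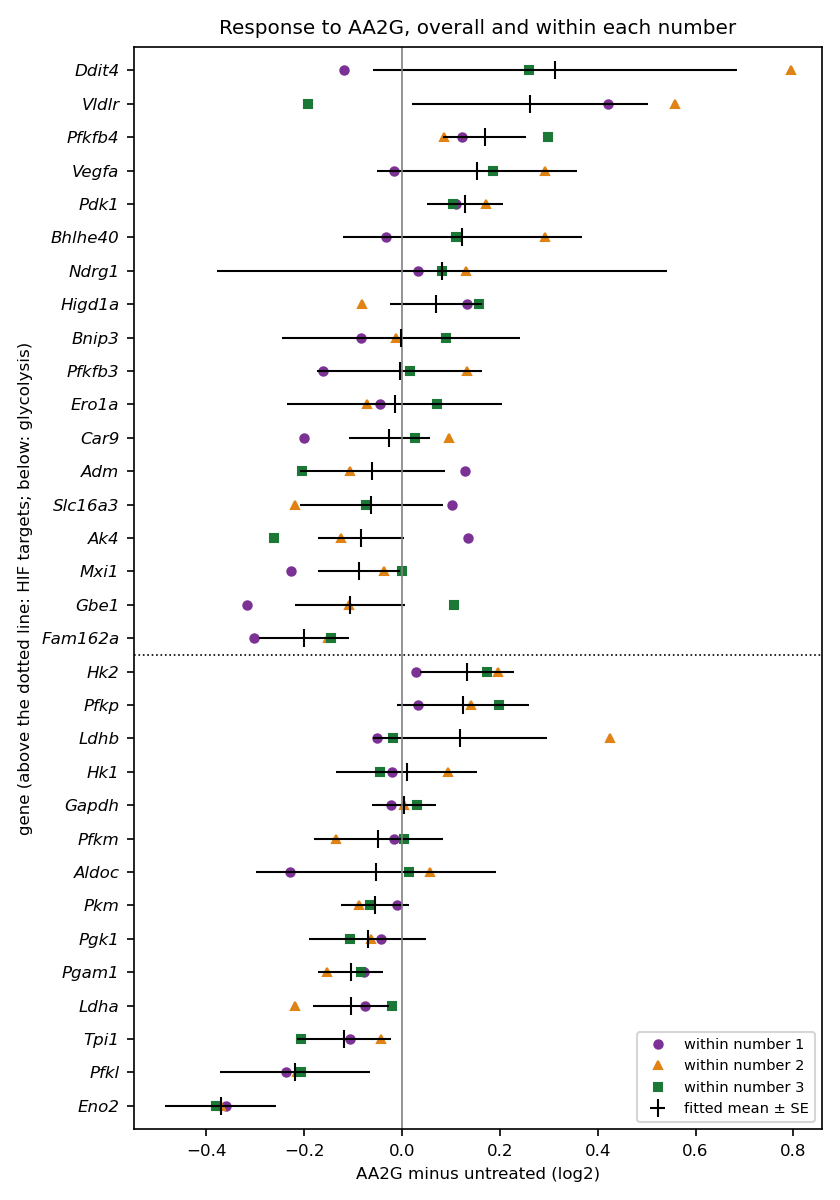
For each gene, purple circles, orange triangles and green squares give AA2G minus untreated (log2) within replicate numbers 1, 2 and 3, and the black tick with its bar the fitted mean ± SE over 3 arrays a group. The 3 symbols of Eno2 and of Pfkl lie close together left of 0, and those of Ddit4 run from -0.12 to 0.79.

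The RNAs of the proteins that make and control HIF varied by number too, but without a common direction. Of 16 measured HIF subunits, oxygen sensors and cofactors, 0 passed for AA2G in limma and 1 had an unadjusted p under 0.05 (Cited2), and the median change was -0.02. Of these 16 genes, 7 read lower in number 2 than in number 1. Their median share of variance between numbers was 67.1%, near the 69.7% of the members. For the replicate number, 5 of the 16 had an unadjusted limma p under 0.05, against 10.9% of all features. Their median pairwise r was 0.07. Hif1a, the alpha subunit, read 8.48, 8.79 and 8.60 with AA2G, against 8.60, 8.79 and 8.69 untreated, so it was highest where most of its targets were lowest. Its unadjusted limma p for the replicate number was 0.0582. Hif1an, the asparagine hydroxylase that blocks HIF coactivators, was 0.27 ± 0.08 higher in number 2 than in number 1 (SE), and Egln2 was 0.28 ± 0.08 higher. The sensors that are themselves HIF targets went the other way, with Egln3 lower in number 2 by 1.02 ± 0.11 and Egln1 by 0.56 ± 0.14. Hif3a was lower by 0.45 ± 0.08, and Arnt, the partner subunit, by 0.25 ± 0.08. Cited2, a HIF-induced competitor for coactivators, read higher in number 2 than in number 1, by 0.35 ± 0.20, unlike Egln3 and Egln1. Cited2 had the largest difference with AA2G, -0.54 ± 0.17 (limma adjusted p = 0.311), and Hif3a was at -0.32 ± 0.15 (limma adjusted p = 0.533).

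Of 26 further HIF targets, 22 read lower in number 2 than in number 1, and 9 had the order 2, 3, 1 in both groups. Their median share of variance between numbers was 68.7%, also near that of the members, and their median pairwise r was 0.42. For the replicate number, 10 of the 26 had an unadjusted limma p under 0.05, against 10.9% of all features. P4ha1, a collagen prolyl hydroxylase gene, read 8.61, 7.60 and 8.10 with AA2G, against 8.74, 7.65 and 8.27 untreated, with 97.8% of its variance between numbers. Ndufa4l2, a mitochondrial protein gene, and Plod2, a collagen lysyl hydroxylase gene, were lower in number 2 by 1.10 ± 0.12 and 0.71 ± 0.09 (SE). The metallothionein genes Mt1 and Mt2, which bind metals and answer to them as well as to oxygen, ran opposite and were higher in number 2 by 0.47 ± 0.08 and 0.87 ± 0.11. For AA2G 0 of the 26 passed in limma, and the median was -0.03. Before adjustment 2 of the 26 had a p under 0.05, Car12, a carbonic anhydrase gene, at 0.37 ± 0.16 (limma adjusted p = 0.503) and the histone demethylase gene Kdm3a at -0.24 ± 0.07 (limma adjusted p = 0.304).

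**Figure D5:**
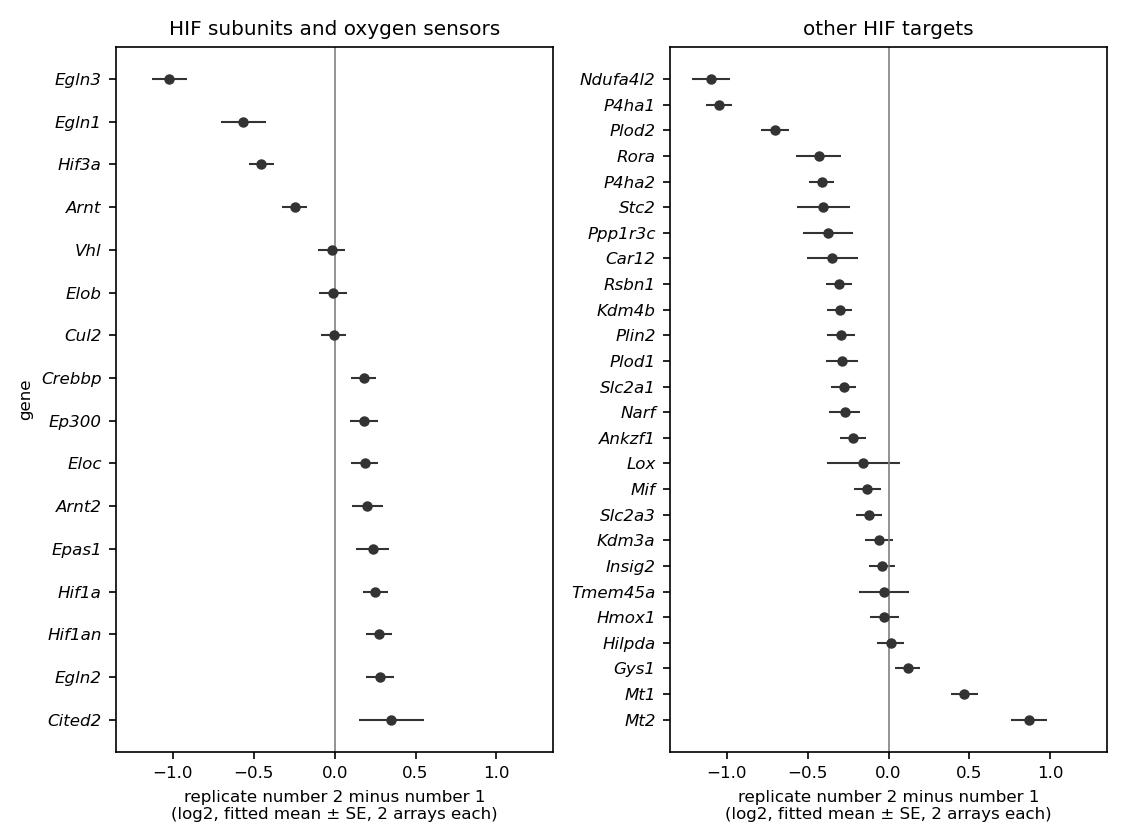
Points give replicate number 2 minus replicate number 1 on the log2 scale with the fitted SE, 2 arrays a number, for 16 HIF subunits and sensors (left) and 26 further HIF targets (right). Most targets lie left of 0, led by Ndufa4l2 and P4ha1, while Hif1a, Hif1an, Egln2, Mt1 and Mt2 lie right of it.

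Neighbouring metabolic genes are given by list, and no difference between lists was tested. Of 22 genes of pyruvate oxidation and the citrate cycle, 1 (Pdk2) had an unadjusted p under 0.05 for the replicate number in limma, against 10.9% of all features, and their median pairwise r was 0.19. Of 14 genes of the pentose phosphate, hexosamine and serine branches it was 0, with a median r of 0.10, and of 15 genes of gluconeogenesis and lactate handling it was 3 (Bsg, G6pc3 and Tigar), also with a median r of 0.10. The median share of variance between numbers was 50.5%, 54.0% and 29.1% in these 3 lists, against 40.9% over all features. For AA2G 0 genes of the first 2 lists passed the limma threshold. The pyruvate carrier gene Mpc1 was at -0.31 ± 0.11 (limma adjusted p = 0.347), and the serine synthesis gene Psph at 0.24 ± 0.11 (limma adjusted p = 0.516).

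In the list of gluconeogenesis and lactate handling, which also holds tissue-specific isozymes, 1 of the 15 genes rose with AA2G. Ldhc, the lactate dehydrogenase of the testis, read 5.88, 5.93 and 5.79 with AA2G, against 5.09, 5.08 and 5.14 untreated, a change of 0.76 ± 0.07 (SE; limma adjusted p = 0.00431). Its groups lay far apart, and 0.175% of its variance fell between numbers. The muscle isozymes Eno3 and Pgam2 were at 0.44 ± 0.09 (limma adjusted p = 0.109) and 0.47 ± 0.10 (limma adjusted p = 0.103), higher in 3 of 3 numbers. The somatic counterparts among the members, Ldha, Ldhb and Pgam1, were at -0.10 ± 0.08, 0.12 ± 0.18 and -0.10 ± 0.07. G6pc3, a glucose phosphatase gene, and Bsg, which carries lactate transporters to the membrane, followed the numbers instead, with 98.8% and 92.1% of their variance between them and number 2 lowest.

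Markers of other cell types were read beside the replicate number. At an unadjusted limma p under 0.05 there were 0 of 10 primitive endoderm genes, 2 of 9 trophoblast genes (Eomes and Ascl2), 2 of 9 mesoderm genes (Foxf1 and Mixl1), 0 of 9 neuroectoderm genes and 0 of 10 fibroblast genes, and 1 of 10 stem cell genes (Tdgf1). The largest difference was that of Eomes, lower in number 2 than in number 1 by 0.86 ± 0.12 (SE), at 6.07, 5.40 and 5.77 with AA2G, against 6.63, 5.58 and 5.94 untreated. Its part in the pattern of the HIF targets was not tested. For AA2G the same lists held 0 calls in limma outside the stem cell genes, of which 1 rose, Fbxo15 by 0.63 ± 0.07 (limma adjusted p = 0.00625).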

How the data were processed

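Total RNA of R1 mouse embryonic stem cells was hybridised to Affymetrix Mouse Gene 2.0 ST arrays, 1 array for each of 3 AA2G and 3 untreated cultures. The authors deposited values on the log2 scale, and the submitters' processing notes name RMA and Affymetrix Expression Console. RMA corrects background, quantile-normalizes the arrays and summarises probes, so a change of total RNA per cell is not seen and dim features understate changes. For tool versions and filters the sources used here give nothing. Sequencing depth does not apply, and precision is limited by having 6 arrays.

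Features with exactly 1 platform symbol (23521 of 41345) entered a two-sided limma test (version 3.58.1, R 4.3.3; lmFit and eBayes without covariates), with Benjamini-Hochberg adjustment over all of them and a threshold of 0.05. The replicate number was tested by an F statistic in a second model with group and number. Shares of variance come from sums of squares of the balanced layout, and correlations from values with group means removed. Noise alone gives a share above 0, and a larger one for the number than for the group. The series' design text calls the replicates independent, and no label names a batch. The p-values and SEs of limma mix a gene's own spread between these cultures with a prior variance pooled over all tested features. They cover no variation beyond these cultures. The procedure was tested on simulated data with independent noise for each array. Apart from planted changes, arrays of a number shared no variation there. That test therefore does not cover how such variation affects the AA2G fit.

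The members, gene lists, tests and the rule for named genes were chosen with earlier results of these data known, among them the variation by replicate number. Values for every array are given for the 8 members with the largest share between numbers, the 4 with the smallest AA2G p and the 4 with the largest difference of 1 sign in all numbers, and for Ddit4 and Vegfa, which were added after their values were seen. Other lists are given by counts and by up to 4 genes from each of 2 orders, p and share. Egln1, Ndufa4l2 and a few other list genes outside that rule are named after their values were seen. Alternatives were repeated quantile normalization, a trended robust prior, a shift of arrays to 1 median, brighter features only, all features, 1 feature a gene, the replicate number as a block, array weights, and leaving out arrays or both arrays of a number. Promoter sequences are those of RefSeq for GRCm38.p6, matched by gene identifier.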

Additional observations from a re-analysis of the deposited data

How the results depend on the processing

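Of the 32 members, 0 passed for AA2G in the limma fit and in each of the 17 alternatives. The lowest adjusted limma p of a named member in any of them was 0.106. The count of all features called moved with the setting, being 179 as reported, 277 with a trended robust prior, 496 with array weights and 21 to 131 with arrays left out. The median change of the members was -0.02 and ran from -0.117 to 0.0867 with arrays left out. The lowest value came without untreated replicate 2 and the highest without AA2G replicate 2. Leaving out AA2G replicate 1 gave -0.0979 and leaving out untreated replicate 1 gave 0.0778, and such fits keep 1 number in a single group. Leaving out both arrays numbered 1 gave 0.0206. The cause of the other changes was not tested. Near-zero values turned sign: Bnip3 with quantile normalization again (0.0082) and with array weights (0.0444), Ero1a (0.0305) and Hk1 (-0.0057) with array weights. With arrays left out, Ndrg1 ran from -0.35 to 0.49, Bnip3 from -0.21 to 0.21, Ero1a from -0.19 to 0.19, Hk1 from -0.11 to 0.13, Aldoc from -0.29 to 0.18, Pfkm from -0.17 to 0.0538, Pgk1 from -0.17 to 0.0202 and Bhlhe40 from -0.13 to 0.35, while Eno2 (-0.47 to -0.28), Fam162a (-0.27 to -0.12), Pfkl (-0.34 to -0.10), Pfkfb4 (0.10 to 0.24) and Pdk1 (0.08 to 0.16) kept their sign.

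Deviations from the group means correlated across features at 0.23, 0.22 and 0.02 for same-numbered arrays 1, 2 and 3. Each array correlated best with its own number, a hint from the data and not from the design, and number 3 gave no clear sign of pairing. With the replicate number as a block, 155 features and 0 members were called, and Eno2 was at an adjusted limma p of 0.110. For the replicate number itself, 0 features and 0 members were called, against 708 and 14 with a trended robust prior and 1 and 1 with brighter features only. Fits with 1 array left out have fewer residual degrees of freedom and keep 1 number on a single array. Their counts are therefore no check on these calls. The median pairwise r of the members was 0.64 with group means left in and ran from 0.78 to 0.92 with a number left out. With a number left out, each group keeps only a pair of mirrored deviations, which pushes r away from 0. That range therefore does not measure stability. The share of members with a core, 86.7%, was the same in the 250 bases before the start. For all genes it was 46.7% in the full windows and 41.5% in the 250 bases.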

Other observations

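Beyond the 32 members, the same order of replicate numbers appeared in other genes. Among brighter features with over 80% of their variance between numbers, the 10 with the widest span were Nxph4, Txnip, Stc1, Ndufa4l2, Gprc5a, Anxa2, P4ha1, Taf1d, Myb and Cd68, a rule set after the values were seen. Ndufa4l2 and P4ha1 are among the further HIF targets described above. Nxph4, a neurexophilin gene, read 7.77, 6.52 and 7.28 in AA2G cultures 1 to 3, against 7.56, 6.37 and 7.24 in untreated cultures 1 to 3. Txnip, a thioredoxin-binding protein whose transcript responds to glucose, spanned 1.15 between its highest and lowest number. Stc1, a secreted glycoprotein gene, read 6.26, 5.31 and 6.08 with AA2G, against 6.14, 4.80 and 5.64 untreated. Of the 10, 9 were lowest in number 2. Taf1d, a subunit gene of the RNA polymerase I machinery, was highest there, at 8.24, 9.28 and 8.73 with AA2G, against 8.27, 9.29 and 9.01 untreated. For AA2G none of the 10 passed in limma, with adjusted p from 0.824 to 0.995.

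Among the stem cell markers, Tdgf1, a co-receptor of Nodal, followed the numbers as the HIF targets did. Number 2 lay below number 1 by 0.35 ± 0.08 (SE), with 95.8% of its variance between numbers. Nanog and Pou5f1 did not, with 0.39% and 0.84%, nor did Klf4 (1.60%) and Fbxo15 (0.14%). The other stem cell genes lay between. On the mean of both groups, Dppa5a (71.5%) and Sox2 (65.6%) were lowest in number 2. Esrrb (72.6%), Zfp42 (70.7%) and Tfcp2l1 (43.8%) were highest there. Over the 10 stem cell genes the median share was 54.7%, against 40.9% over all features.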
